A study of Mus musculus with 24 samples.

Results

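The 8 genes described here encode the subunits of the V1 sector of the vacuolar-type ATPase (V-ATPase) in their widely expressed forms: Atp6v1a, Atp6v1b2, Atp6v1c1, Atp6v1d, Atp6v1e1, Atp6v1f, Atp6v1g1 and Atp6v1h. The rule that picked them used their names and no measured value, but the genes were chosen with earlier results of these data known. All 8 were among the 55487 genes counted, and all 8 passed the filter on low counts that left 15401 genes to test. Polyadenylated RNA had been sequenced from mouse embryonic fibroblasts (MEFs) of 2 lines, wild type (WT) and a double knockout of the transcription factor genes *Tfeb* and *Tfe3* (*tfeb tfe3* DKO). Each line received vehicle (DMSO at 0.1%), torin1 at 100 nM or MK-8722 at 10 μM, which gave 6 groups of 4 libraries each. Torin1 inhibits the kinase MTOR, and MK-8722 activates the kinase AMPK. The duration of the treatment before sequencing was not given in the sources used here. Each genotype was 1 line given by another laboratory and the 4 libraries of a group were different passages of that line, so the knockout and any other difference between the lines cannot be told apart, and the p-values measure the spread between cultures of a line rather than between animals.

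The V-ATPase is a rotary proton pump that acidifies lysosomes and other compartments. Its V1 sector sits in the cytosol and hydrolyses ATP, and its V0 sector lies in the membrane and carries the protons. The V1 sector can come off V0 and return to it, and the assembled pump works with the Ragulator complex in signalling amino acids to MTORC1. TFEB and TFE3 are related basic helix-loop-helix factors that bind sites with the core CACGTG near many lysosomal genes, and MTORC1 holds them in the cytosol by phosphorylating them.

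The libraries held between 24668870 and 33332507 counts. The RNA integrity number (RIN) was 7.9 in DKO MK-8722 replicate 3, the lowest value, against a median of 9.8 over the libraries. Levels of *Tfeb*, in CPM (counts corrected for library size with TMM factors, comparable between libraries but not between genes), averaged 22.9 CPM in WT and 2.25 CPM in DKO with DMSO, and stayed between 1.34 and 2.65 CPM in all DKO libraries. *Tfe3* ranged from 119 to 122 CPM in WT and from 121 to 126 CPM in DKO under DMSO, and counts over the whole gene do not check that knockout. All 9 fibroblast markers examined were at 1 CPM or more on average in each WT group and 8 of 9 in each DKO group, where *Thy1* fell short. Of the leukocyte markers, *Ptprc* reached at most 0.195 CPM and *Adgre1* had no count, while *Cd68*, which codes for a lysosomal glycoprotein, carried the sum of the 3 markers.

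In WT MEFs, MK-8722 upregulated all 8 genes, against 10.3% of all genes tested, and torin1 upregulated 5 of them, against 26.6%. In *tfeb tfe3* DKO MEFs, none of the 8 was called higher under torin1 (23% of all genes) or MK-8722 (5.47%). Torin1 downregulated 4 in DKO, against 20.2% of all genes. Under other choices of processing, the torin1 count ranged from 3 to 7 higher in WT and from 3 to 8 lower in DKO. Averaged over the 8 genes, the log2 CPM relative to WT with DMSO was 0.37 ± 0.04 in torin1-treated and 0.81 ± 0.05 in MK-8722-treated WT cells (SD over 4 libraries). In DKO it was 0.17 ± 0.03 under DMSO, -0.13 ± 0.02 under torin1 and 0.27 ± 0.04 under MK-8722. A gene was called where edgeR's quasi-likelihood test gave a Benjamini-Hochberg adjusted p under 0.05 over all genes tested and the fold change was at least 1.2. Both drug comparisons within a line shared the same 4 DMSO libraries. In bulk RNA, fewer cells that express a gene and less of its RNA per cell cannot be told apart.

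**Figure D1:**
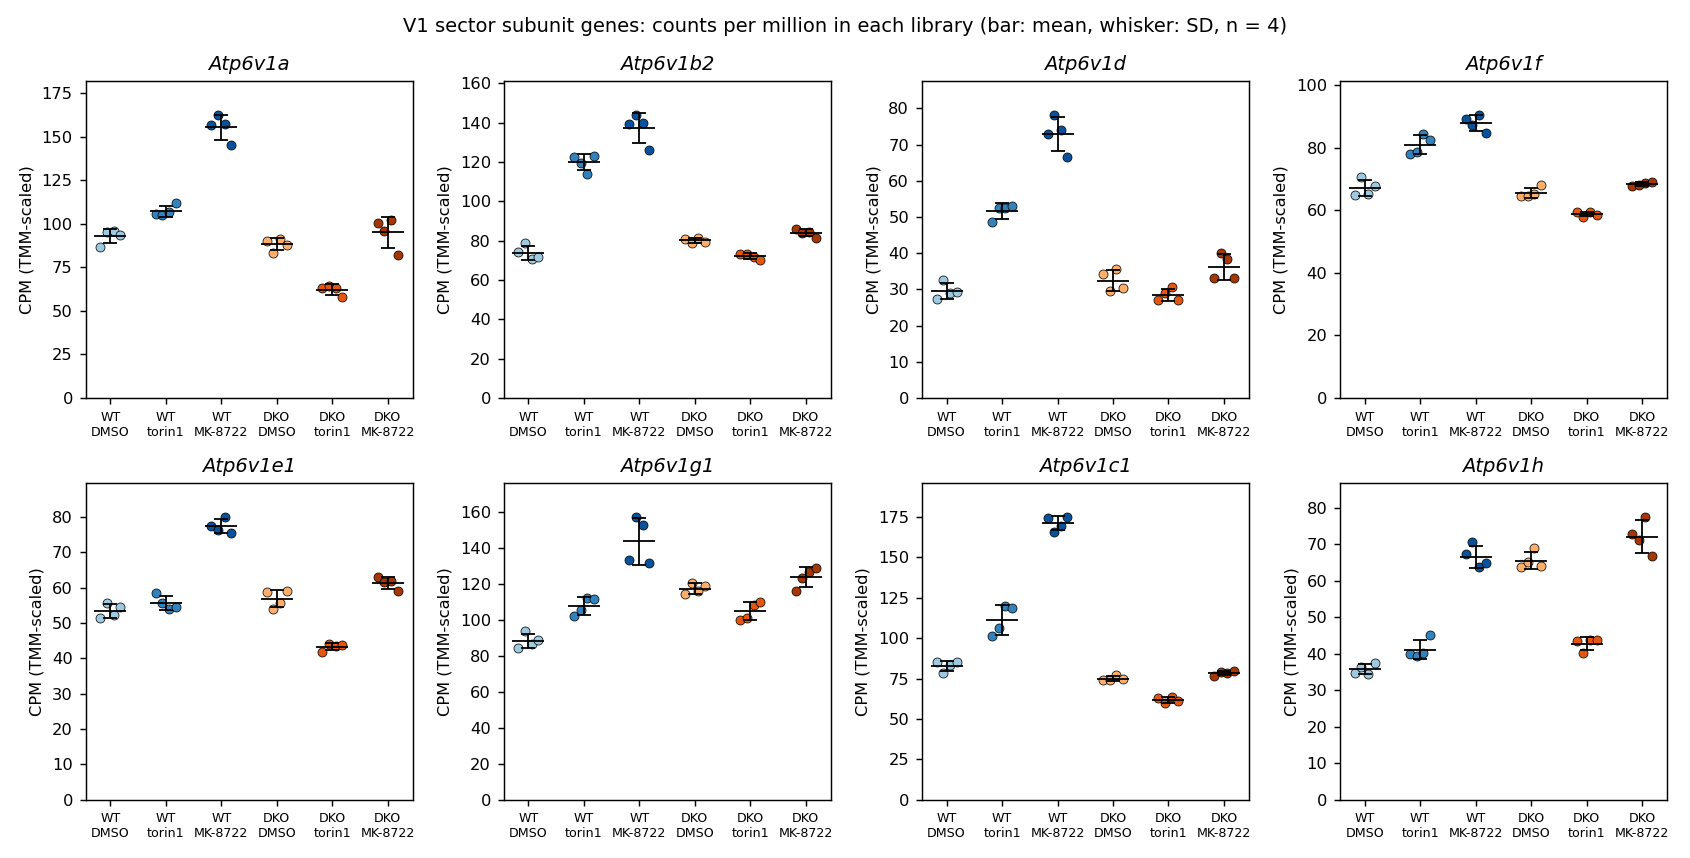
CPM of each V1 gene (y axis, from 0) in the 24 libraries, by line and treatment (x axis). Points are libraries, bars are means and whiskers are SD (n = 4). For all 8 genes the 4 WT libraries with MK-8722 lie above the 4 WT libraries with DMSO, while the DKO groups with MK-8722 and DMSO overlap in 7 of the 8 genes.

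Subunits A and B form the ring in which ATP is hydrolysed, A carrying the catalytic sites. Atp6v1a lies at chr16:44085402-44139705 on the minus strand (GRCm38). In WT, the DMSO libraries held 87.0, 95.3, 96.1 and 93.5 CPM, the torin1 libraries 106, 105, 107 and 112 CPM and the MK-8722 libraries 157, 163, 157 and 145 CPM. The 3 WT groups did not overlap. In DKO, the DMSO libraries held 90.4, 83.5, 91.3 and 87.7 CPM, the torin1 libraries 63.2, 64.6, 63.4 and 57.9 CPM and the MK-8722 libraries 100.4, 95.7, 102.1 and 82.3 CPM. The lowest DKO library with MK-8722 thus lay under all 4 DMSO libraries, and all DKO libraries with torin1 lay below all of those with DMSO. In edgeR's quasi-likelihood fit, Atp6v1a was upregulated by MK-8722 in WT (log2 fold change 0.74 ± 0.06 SE, adjusted p = 5.65e-10) and downregulated by torin1 in DKO (-0.50 ± 0.06 SE, adjusted p = 5.85e-08). With torin1 in WT its change of 0.21 ± 0.06 SE had an adjusted p of 0.0025 but stayed below the fold change of 1.2.

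Atp6v1b2 lies at chr8:69088646-69113711 on the plus strand. The WT libraries with DMSO held 74.0, 78.6, 70.5 and 71.8 CPM, the torin1 libraries 123, 119.5, 114 and 123 CPM and the MK-8722 libraries 139, 144, 139.7 and 126 CPM. All drug-treated WT libraries lay above the DMSO libraries. The DKO libraries with DMSO held 80.8, 78.9, 81.4 and 79.3 CPM, the torin1 libraries 73.2, 73.4, 71.6 and 70.4 CPM and the MK-8722 libraries 85.8, 84.0, 84.5 and 81.5 CPM. The DKO groups were separate but lay close together. By edgeR's quasi-likelihood test, Atp6v1b2 was upregulated in WT by torin1 (log2 fold change 0.70 ± 0.04 SE, adjusted p = 1.12e-12) and by MK-8722 (0.90 ± 0.04 SE, adjusted p = 1.02e-13). Its changes in DKO, -0.15 ± 0.04 SE with torin1 and 0.07 ± 0.04 SE with MK-8722, did not reach the fold change.

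Subunits D and F form the central rotor that turns inside the ring. Atp6v1d (chr12:78840725-78861638, minus strand) had the highest fold change of the 8 genes with each drug in WT. In WT, the DMSO libraries held 27.4, 32.7, 29.0 and 29.2 CPM, the torin1 libraries 48.5, 52.6, 52.6 and 53.0 CPM and the MK-8722 libraries 73.1, 78.2, 74.1 and 66.6 CPM. The 3 WT groups were again separate, with torin1 in the middle. In DKO, the DMSO libraries held 34.3, 29.7, 35.5 and 30.4 CPM, the torin1 libraries 27.1, 29.1, 30.7 and 27.0 CPM and the MK-8722 libraries 33.3, 40.03, 38.3 and 33.0 CPM, and each drug-treated group overlapped the DMSO group. In edgeR's quasi-likelihood fit, Atp6v1d rose 1.75-fold with torin1 (log2 fold change 0.80 ± 0.07 SE, adjusted p = 1.7e-09) and 2.47-fold with MK-8722 (1.30 ± 0.07 SE, adjusted p = 3.52e-12) in WT. In DKO the log2 changes were -0.19 ± 0.07 SE with torin1 and 0.15 ± 0.07 SE with MK-8722, neither called.

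Atp6v1f (chr6:29467718-29470512, plus strand) moved over a narrower range than its rotor partner. The WT libraries with DMSO spanned 65.0 to 70.6 CPM, the torin1 libraries 78.0 to 84.3 CPM and the MK-8722 libraries 84.6 to 90.4 CPM. The DKO libraries with DMSO spanned 64.4 to 68.0 CPM, the torin1 libraries 57.9 to 59.5 CPM and the MK-8722 libraries 67.8 to 69.1 CPM. By edgeR's quasi-likelihood test, the WT changes of 0.27 ± 0.03 SE (log2) with torin1 (adjusted p = 2.82e-07) and 0.39 ± 0.03 SE with MK-8722 (adjusted p = 5.72e-09) were called, the former close to the fold limit. Its call with torin1 was lost, at log2 values of 0.22 to 0.26, when any of 8 libraries was left out: WT DMSO replicates 1 and 3, WT torin1 replicates 1, 3 and 4, or WT MK-8722 replicates 1, 2 and 4, which enter through the scaling. It was also lost in 6 of the 14 other alternatives, among them no filter (log2 0.24), the length offset (0.26), the fit of only the groups compared (0.25) and DESeq2 (0.26).

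Subunits E and G pair in the peripheral stalks that hold the ring still against the membrane sector. Atp6v1e1 lies at chr6:120794305-120822793 on the minus strand. In WT, the DMSO libraries held 51.3, 55.6, 52.2 and 54.4 CPM, the torin1 libraries 58.5, 55.8, 54.0 and 54.4 CPM and the MK-8722 libraries 77.5, 76.4, 80.0 and 75.3 CPM. The torin1 libraries overlapped those with DMSO, and the MK-8722 libraries were apart from both. In DKO, the DMSO libraries held 58.6, 54.0, 55.7 and 59.0 CPM, the torin1 libraries 41.9, 44.0, 43.6 and 43.7 CPM and the MK-8722 libraries 63.0, 61.6, 61.7 and 59.0 CPM. In edgeR's quasi-likelihood fit, Atp6v1e1 rose with MK-8722 in WT (log2 fold change 0.53 ± 0.04 SE, adjusted p = 1.4e-10) and fell with torin1 in DKO (-0.39 ± 0.04 SE, adjusted p = 4.71e-09). With torin1 in WT its change was 0.06 ± 0.04 SE, with a 95% interval from -0.02 to 0.14 (adjusted p = 0.165). Over the 14 other alternatives this change ran from 0.02 to 0.17 and was never called. By TPM, the length-corrected level used further below, the WT libraries spanned 77.2 to 88.1 with DMSO and 95.9 to 107.5 with torin1, without overlap.

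Atp6v1g1 (chr4:63544772-63550750, plus strand) started from a higher level in DKO than in WT. With DMSO it spanned 84.4 to 93.7 CPM in WT and 114 to 121 CPM in DKO, without overlap. In WT the torin1 libraries spanned 102.3 to 112.1 CPM and the MK-8722 libraries 132 to 158 CPM. In DKO the torin1 libraries spanned 100.3 to 109.8 CPM and the MK-8722 libraries 116 to 129 CPM. The WT increases were called by edgeR's quasi-likelihood test with torin1 (log2 fold change 0.29 ± 0.05 SE, adjusted p = 6.97e-05) and with MK-8722 (0.70 ± 0.05 SE, adjusted p = 9.03e-10), and the DKO changes of -0.16 ± 0.05 SE and 0.08 ± 0.05 SE were not. Its torin1 call in WT was lost without WT DMSO replicate 1 (log2 0.26) and without WT torin1 replicate 3 (log2 0.24).

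Subunits C and H join the ring to the stalks and to V0, and C is the subunit whose release accompanies the separation of V1 from V0. Atp6v1c1 lies at chr15:38661933-38692446 on the plus strand. The WT libraries with DMSO held 85.2, 78.4, 83.3 and 85.0 CPM, the torin1 libraries 101, 106, 119.9 and 119 CPM and the MK-8722 libraries 175, 166, 169.6 and 175 CPM. All MK-8722 libraries lay above all torin1 libraries, and these above all DMSO libraries. The DKO libraries with DMSO held 73.9, 74.2, 77.0 and 74.5 CPM, the torin1 libraries 62.9, 59.8, 63.6 and 61.0 CPM and the MK-8722 libraries 76.5, 79.0, 78.1 and 79.8 CPM. By edgeR's quasi-likelihood test, Atp6v1c1 rose 1.34-fold with torin1 (log2 fold change 0.43 ± 0.04 SE, adjusted p = 1.97e-08) and 2.06-fold with MK-8722 (1.05 ± 0.04 SE, adjusted p = 5.99e-14) in WT. In DKO it fell with torin1 (-0.28 ± 0.04 SE, adjusted p = 1.22e-05), close to the fold limit, and this call was lost without DKO torin1 replicate 2 (log2 -0.25). It was also lost in 4 of the 14 other alternatives, at log2 values from -0.28 to -0.21, which left 3 genes called lower.

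Atp6v1h (chr1:5070018-5162529, plus strand) differed most between the lines at baseline. In WT, the DMSO libraries held 34.7, 36.3, 34.5 and 37.4 CPM, the torin1 libraries 39.99, 39.4, 40.1 and 45.1 CPM and the MK-8722 libraries 67.4, 70.5, 63.7 and 64.8 CPM. In DKO, the DMSO libraries held 63.9, 65.1, 69.1 and 64.2 CPM, the torin1 libraries 43.6, 40.2, 43.7 and 43.7 CPM and the MK-8722 libraries 72.9, 71.2, 77.6 and 66.9 CPM. The DKO libraries with DMSO thus lay in the range of the WT libraries with MK-8722, and the DKO libraries with torin1 lay near the WT libraries with torin1. In edgeR's quasi-likelihood fit, Atp6v1h rose with MK-8722 in WT (log2 fold change 0.90 ± 0.05 SE, adjusted p = 4.48e-12) and fell with torin1 in DKO (-0.61 ± 0.05 SE, adjusted p = 4.64e-10). With torin1 in WT the change of 0.20 ± 0.05 SE (adjusted p = 0.00127) stayed below the fold limit.

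**Figure D2:**
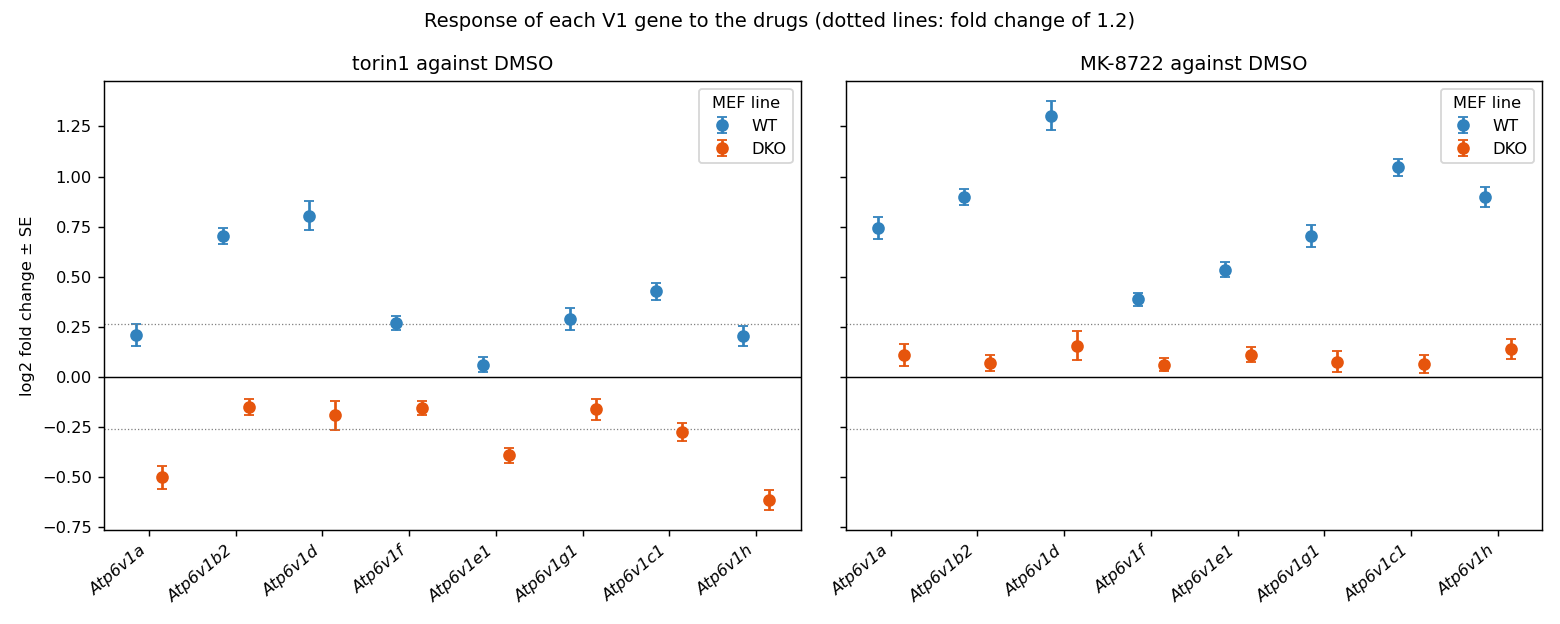
Log2 fold change (y axis) of each V1 gene (x axis) with torin1 (left) and MK-8722 (right) against DMSO, in WT (blue) and DKO (orange). Points are edgeR estimates with SE, and dotted lines mark a fold change of 1.2. All WT points with MK-8722 lie above the upper line and all DKO points with MK-8722 lie between the lines, from 0.06 to 0.15.

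With torin1 in WT, the 5 genes called higher were Atp6v1b2, Atp6v1c1, Atp6v1d, Atp6v1f and Atp6v1g1. Of all genes tested in that comparison, 26.6% were called higher. The median log2 change was 0.28 over the 8 genes and 0.05 over all genes. In 7 of the 8 genes all torin1 libraries lay above all DMSO libraries, as they did in 28.4% of all genes. With the library totals alone as scaling, the torin1 changes of Atp6v1a and Atp6v1h in WT came to 0.30 each and both passed. Atp6v1a also passed with the offset for transcript length.

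With MK-8722 in WT, all 8 genes were called higher, against 10.3% of all genes tested. The largest adjusted p among the 8 was 5.72e-09 by edgeR's quasi-likelihood test, and the log2 changes ran from 0.39 for Atp6v1f to 1.30 for Atp6v1d with a median of 0.82, against -0.01 over all genes. All MK-8722 libraries lay above all DMSO libraries in 8 of 8 genes, as in 15% of all genes. The sum of the leukocyte markers, 1 of 3 of which reached 1 CPM, spanned 1.57 to 2.24 CPM under DMSO, 4.11 to 6.41 CPM under torin1 and 10.1 to 14.3 CPM under MK-8722 in WT, with the defining markers *Ptprc* and *Adgre1* at or near 0.

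With torin1 in DKO, Atp6v1a, Atp6v1c1, Atp6v1e1 and Atp6v1h were called lower, against 20.2% of all genes tested, and none was called higher, against 23% of all genes. All 8 changes were negative with an adjusted p under 0.05 by edgeR's quasi-likelihood test, as were 28.1% of all genes, the largest p being 0.0283 for Atp6v1d. In 7 of the 8 genes, all but Atp6v1d, all torin1 libraries lay below all DMSO libraries, as in 26.1% of all genes. The median log2 change was -0.23 over the 8 genes and 0.02 over all genes. The summed epithelial markers, of which *Krt8* alone reached 1 CPM on average in this line, were 2.99 to 4.87 CPM with DMSO and 9.88 to 14.5 CPM with torin1. In WT, where *Cdh1* also reached 1 CPM under torin1, they were 2.77 to 4.58 and 5.55 to 7.45 CPM, and their part in the results was not tested.

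With MK-8722 in DKO, 0 of the 8 genes were called by edgeR's quasi-likelihood test, against 8.69% of all genes called and 5.47% called higher. The unadjusted p was under 0.05 for 3 of the 8, all higher, as for 16.4% of all genes, and DESeq2 also called 0. The count called stayed at 0 with each library left out, among them the DKO MK-8722 library with the lowest RIN. The 8 log2 changes lay between 0.06 and 0.15 with a median of 0.09, and the highest upper 95% bound was 0.30, for Atp6v1d. Only Atp6v1e1, at 0.11 ± 0.04 SE, had an adjusted p under 0.05 (0.0368), as had 10.5% of all genes in that direction. Atp6v1b2 was the gene in which all MK-8722 libraries lay above all DMSO libraries, as in 11.4% of all genes.

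The difference in response between the lines was tested directly as an interaction of line and drug. A lower response in DKO means a log2 change below that in WT, which can be a smaller rise, a fall in place of a rise or a larger fall. For torin1, the response of all 8 genes was lower in DKO than in WT, against 6.33% of all genes called in that direction. The differences ran from -0.42 ± 0.05 SE for Atp6v1f to -0.996 ± 0.10 SE for Atp6v1d on the log2 scale, with adjusted p from 4.55e-10 to 0.000227 by edgeR's quasi-likelihood test. For MK-8722, the response of all 8 was again lower in DKO, against 4.08% of all genes. The differences ran from -0.33 ± 0.05 SE for Atp6v1f to -1.15 ± 0.10 SE for Atp6v1d, with adjusted p from 2.73e-10 to 4.93e-05. The ordering of the genes within the complex was uneven: the rotor subunits D and F stood at opposite ends with both drugs.

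Between the lines under DMSO, 2 of the 8 genes were higher in DKO, Atp6v1g1 and Atp6v1h, against 23.5% of all genes called higher, and none was called lower, against 24.6%. By edgeR's quasi-likelihood test the differences were 0.41 ± 0.05 SE (adjusted p = 5.62e-07) for Atp6v1g1 and 0.88 ± 0.05 SE (adjusted p = 7.6e-13) for Atp6v1h on the log2 scale. The other 6 lay between -0.15 for Atp6v1c1 and 0.13 for Atp6v1d. The sign for Atp6v1a, -0.08 ± 0.06 SE, turned to 0.011 with an offset for transcript length.

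Under torin1, 6 of the 8 genes were lower in DKO than in WT, against 27.8% of all genes called lower. Under MK-8722 the same 6 were lower, against 25.4% of all genes. Atp6v1c1 differed by -0.85 ± 0.04 SE with torin1 and -1.13 ± 0.04 SE with MK-8722, and Atp6v1d by -0.86 ± 0.07 SE and -1.01 ± 0.07 SE (log2). The exceptions in both were Atp6v1g1, at -0.04 ± 0.05 SE and -0.22 ± 0.05 SE, and Atp6v1h, at 0.06 ± 0.05 SE and 0.12 ± 0.05 SE. The small difference of Atp6v1h under torin1 was -0.070 when libraries were scaled by their totals alone. These are the genes that were higher in DKO with DMSO.

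Torin1 and MK-8722 were also set against each other within each line. In WT, 6 of the 8 genes were lower with torin1 than with MK-8722, against 20% of all genes called lower, the exceptions being Atp6v1b2 (-0.20 ± 0.04 SE, log2) and Atp6v1f (-0.12 ± 0.03 SE). In DKO, 5 of the 8 were lower with torin1, against 19.3% of all genes, with Atp6v1h at -0.75 ± 0.05 SE and Atp6v1a at -0.61 ± 0.06 SE. In both lines every torin1 library lay below every MK-8722 library in all 8 genes, as in 25.6% of all genes in WT and 25.2% in DKO.

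Levels of different genes can be compared only per length, for which TPM (a length-corrected share of all transcripts) was used. By TPM, the order in WT with DMSO was Atp6v1f (182 ± 5.82 TPM, SD, n = 4), Atp6v1g1 (133 ± 5.62), Atp6v1c1 (103 ± 11.6), Atp6v1e1 (83.8 ± 4.69), Atp6v1a (49.9 ± 2.44), Atp6v1b2 (47.4 ± 2.61), Atp6v1h (32.9 ± 1.61) and Atp6v1d (22.7 ± 0.707). In this group the ranges of neighbours overlapped only between Atp6v1a and Atp6v1b2. The summed level of the 8 in WT was 655 ± 11.8 TPM under DMSO, 877 ± 22.5 TPM under torin1 and 1099.7 ± 33.6 TPM under MK-8722. In DKO the sum was 705 ± 12.3, 618 ± 8.22 and 768 ± 4.47 TPM in the same order. The spread of levels was wide, with Atp6v1f at 27.8% and Atp6v1d at 3.46% of the sum in WT with DMSO. Dividing CPM by the length of the longest transcript kept Atp6v1f and Atp6v1g1 first, but moved Atp6v1c1 from rank 3 to 6 and Atp6v1b2 from rank 6 to 3, and put Atp6v1h lowest in place of Atp6v1d. In DKO with DMSO, Atp6v1g1 and Atp6v1f shared the top with overlapping ranges, and Atp6v1h (62.1 ± 2.92 TPM) stood above Atp6v1b2 and Atp6v1a.

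**Figure D3:**
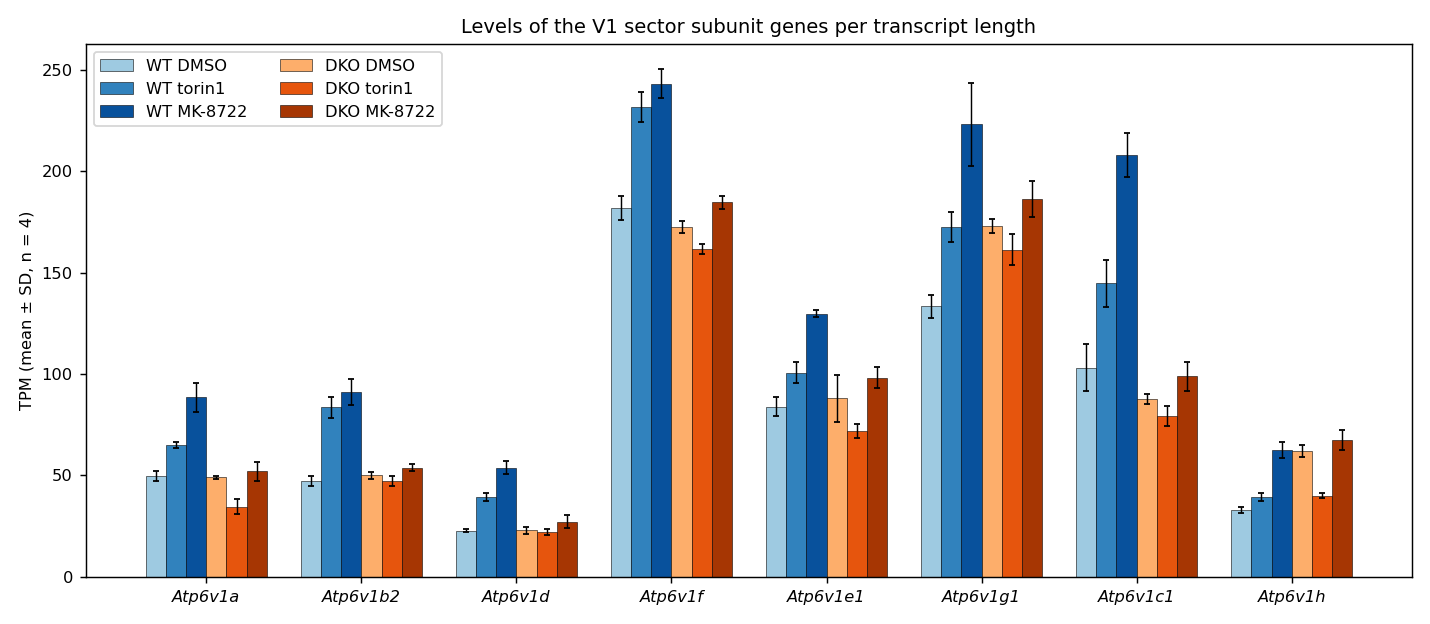
Level of each V1 gene in TPM (y axis, from 0) by gene (x axis) and group (colours). Bars are means and whiskers are SD (n = 4). By this measure Atp6v1f and Atp6v1g1 have the highest means in every group and Atp6v1d the lowest. The ranges of Atp6v1g1 and Atp6v1c1 overlap in WT with MK-8722, and those of Atp6v1h and Atp6v1d overlap in WT with torin1.

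RefSeq promoter windows of 300 bases (250 before and 50 after the start, GRCm38.p6) were at hand for Atp6v1a, Atp6v1d, Atp6v1e1 and Atp6v1f, and were searched on both strands for CACGTG, for its longer forms TCACGTG and GTCACGTG, which contain it, and for CATGTG. Atp6v1a was the gene with CACGTG and TCACGTG, and none of the 4 windows held GTCACGTG or CATGTG. Over all 32851 windows, 7.15% held CACGTG, 3.77% TCACGTG, 2.25% GTCACGTG and 14.2% CATGTG. The site is shown because CACGTG is the core that TFEB and TFE3 bind; it begins 131 bases before the start that RefSeq gives Atp6v1a and lies in no annotated exon. The GENCODE span of the gene begins farther out, so the same letters lie 314 bases inside that span. The stretch printed is chr16:44139344-44139431 on the minus strand, with the palindromic letters in capitals.
Atp6v1a site: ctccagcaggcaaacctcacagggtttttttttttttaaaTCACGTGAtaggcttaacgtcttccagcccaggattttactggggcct
Atp6v1a was called with MK-8722 but not with torin1 in WT, and the windows of Atp6v1d, Atp6v1e1 and Atp6v1f, all called with MK-8722 in WT, held none of these letters. A match of letters is a description of the window and not a measured binding site.

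Transcripts of Atp6v1h differ by exon 7 of 14, which is 54 bases long (18 codons, chr1:5101070-5101123, plus strand, GENCODE M21) and is shown because it changes the encoded H subunit without shifting the frame. The exon is in capitals between 12 bases of each neighbouring exon.
Atp6v1h with the exon: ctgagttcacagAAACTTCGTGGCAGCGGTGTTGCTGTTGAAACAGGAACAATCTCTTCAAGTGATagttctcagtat
Atp6v1h without the exon: ctgagttcacagagttctcagtat
Transcripts with the exon made up a mean of 68.1% to 70.5% of the TPM over transcripts that span it in the 6 groups, and the single libraries ranged from 64.2% to 75.4%. The ranges of all 6 groups overlapped.

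The share of each gene's TPM on its main transcript was compared between drug and DMSO for the 7 genes with more than 1 transcript, by an exact two-sided permutation test of 4 against 4 libraries, whose smallest possible p is 0.0286. An adjusted p under 0.05 needed most of the 28 tests to reach that smallest p. That threshold could thus hardly be met, and missing it does not show unchanged shares. Of 28 tests, 2 had an unadjusted p under 0.05 and 0 had an adjusted p under 0.05. Both concerned Atp6v1h in DKO, where the share of the main transcript was 39.4% under DMSO, 47.1% under torin1 and 43.8% under MK-8722 (exact permutation p = 0.0286 each, Benjamini-Hochberg adjusted p = 0.40). The largest difference was -8.04 percentage points for Atp6v1e1 with torin1 in WT (exact permutation p = 0.0571). A short coding transcript of Atp6v1h, of 970 bases, was at 5.52 ± 0.587 TPM in WT and 13.6 ± 1.37 TPM in DKO with DMSO, and at 4.97 ± 0.869 TPM in DKO with torin1. For Atp6v1d the transcript with the highest TPM was a retained-intron form of 775 bases (12.2 ± 1.36 TPM in WT with DMSO), beside the coding form at 10.3 ± 1.17 TPM.

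**Figure D4:**
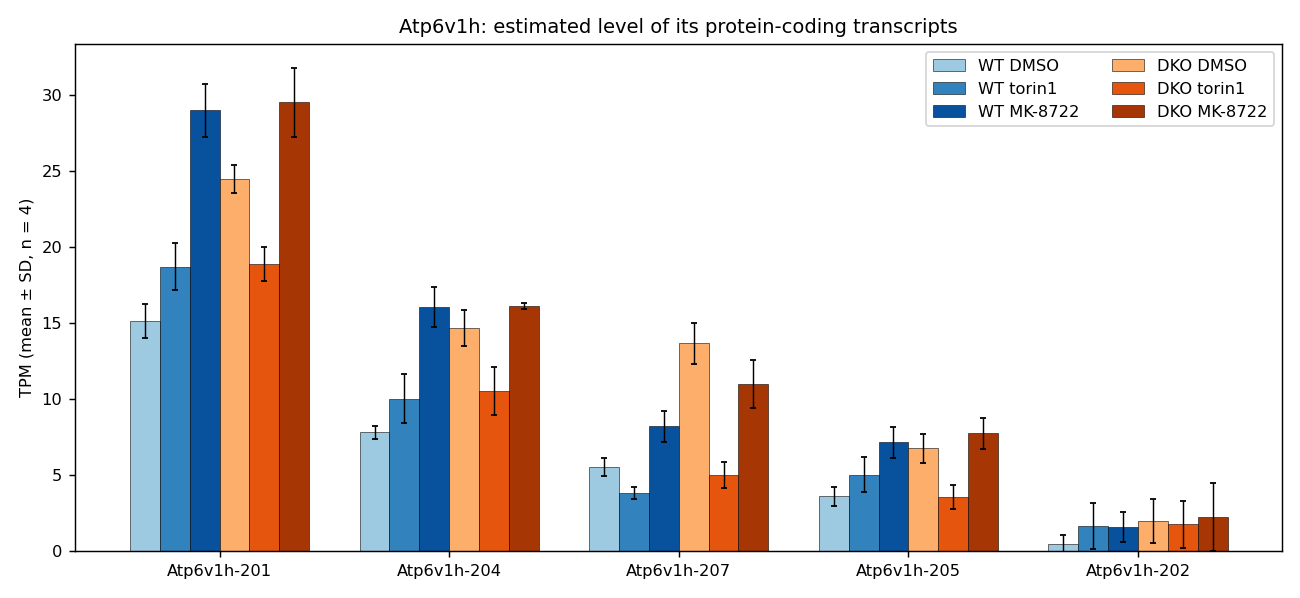
Estimated level in TPM (y axis, from 0) of the 5 protein-coding transcripts of Atp6v1h (x axis) in the 6 groups (colours). Bars are means and whiskers are SD (n = 4). All 5 have a higher mean in DKO than in WT with DMSO, for example 13.6 TPM against 5.52 TPM for the 970-base form and 1.97 TPM against 0.473 TPM for the 385-base form.

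The span of Atp6v1h shares 268 bases with that of *Rgs20* on the opposite strand. The kit was labelled as strand-specific, and the strand setting of the counting is not given in the sources used here, so reads of the shared bases may have been split between the 2 genes. *Rgs20*, a regulator of G-protein signalling, spanned 13.7 to 14.3 CPM in WT and 31.4 to 38.0 CPM in DKO under DMSO, and averaged 27.0 ± 1.88 CPM in torin1-treated DKO and 15.6 ± 1.61 CPM in MK-8722-treated WT cells. Its part in the result for Atp6v1h was not tested. The overlapping genes of Atp6v1b2 and Atp6v1e1 had at most 37 counts in a library.

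The tissue-restricted isoforms of the V1 subunits were low. Atp6v1b1, Atp6v1e2 and Atp6v1g3 had at most 5 counts in any library and were not tested. Atp6v1g2, a stalk subunit known from neurons, ranged from 3.87 to 9.54 TPM over the group means and Atp6v1c2 from 0.689 to 1.65 TPM. Atp6v1g2 rose with torin1 by 0.58 on the log2 scale in each line, and the difference between these responses was 0.00 and not called. Both isoforms were lower in DKO with DMSO.

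For the lists of related genes, the shares of all genes to read the WT counts against are 10.3% called higher and 5.87% lower with MK-8722, and 26.6% higher and 20.5% lower with torin1. Of the V0 and accessory genes, 11 of 12 were tested. With MK-8722 in WT, 8 were called higher and 1 lower with a median log2 change of 0.46, and with torin1 4 were higher and 2 lower with a median of 0.21, shares not far from those of all genes. The response was lower in DKO for 7 with torin1 (median -0.48) and 6 with MK-8722 (median -0.41). Among all genes, a lower response in DKO than in WT was called in 6.33% for torin1 and in 4.08% for MK-8722. The counts of lower responses in the lists below are to be read against these shares too. Atp6v0b, part of the proton-carrying ring, averaged 44.2, 76.7 and 129.6 CPM under DMSO, torin1 and MK-8722 in WT, and its torin1 response differed by -1.41 ± 0.08 SE. Atp6v0d1, the subunit that V1's rotor meets, went from 64.8 to 121 and 136 CPM in WT, with a difference of -1.11 ± 0.08 SE. The accessory gene Atp6ap2 differed by -1.23 ± 0.08 SE and Atp6v0a1, the proton path subunit, by -0.53 ± 0.13 SE. Atp6ap2 started from a higher level in DKO. It averaged 29.7, 64.3 and 69.3 CPM under DMSO, torin1 and MK-8722 in WT, and 78.6, 72.4 and 84.5 CPM in DKO.

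Of the genes for assembly and regulation, 12 of 13 were tested. Of these, 3 were called higher and 1 lower with MK-8722 in WT (median 0.11), and 2 higher and 3 lower with torin1 (median -0.00), with the torin1 shares near or below those of all genes. The response was lower in DKO for 5 with torin1 (median -0.18) and 3 with MK-8722 (median -0.05). Wdr7, part of the complex that helps V1 return to V0, rose from 23.1 to 37.1 CPM with MK-8722 in WT and differed in its torin1 response by -0.91 ± 0.08 SE. Tmem199, a V0 assembly factor, rose from 29.6 to 55.6 CPM and differed in its MK-8722 response by -0.72 ± 0.09 SE. Rogdi and Dmxl2, of the same V1 reassembly machinery as Wdr7, differed by -0.40 ± 0.12 SE and -0.39 ± 0.12 SE with torin1. Dmxl2 rose in WT (0.44, log2). Rogdi fell in DKO (-0.64), and its mean in WT was also lower with torin1 (15.1 CPM) than with DMSO (17.9 CPM).

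For the Ragulator complex, 3 of 5 genes were called higher with MK-8722 in WT (median 0.27). With torin1 in WT, 0 of 5 were called by edgeR's quasi-likelihood test and 0 by DESeq2, although all 5 had an unadjusted and an adjusted p under 0.05 by edgeR. Their torin1 changes stayed under the fold limit and went both ways, from -0.21 for Lamtor4 to 0.25 for Lamtor1 (median -0.17). The response was lower in DKO for 3 of 5 with each drug by edgeR, and by DESeq2 for 3 with torin1 and 2 with MK-8722. Lamtor3 differed by -0.97 ± 0.06 SE, Lamtor1 by -0.68 ± 0.05 SE and Lamtor4 by -0.29 ± 0.08 SE with torin1. Of the lysosomal hydrolases, 23 of 32 tested were called higher with MK-8722 (median 0.65) and 24 with torin1 (median 0.54) in WT, and the response was lower in DKO for 21 and 22 (medians -0.54 and -0.56). Neu1, a sialidase, and Ctsa, its partner carboxypeptidase, differed in their MK-8722 response by -1.48 ± 0.09 SE and -1.10 ± 0.09 SE, and Tpp1, a peptidase, and Arsa, a sulfatase, in their torin1 response by -1.36 ± 0.10 SE and -1.09 ± 0.11 SE. The medians of the 8 V1 genes, -0.71 with torin1 and -0.70 with MK-8722, stood beside a median over all genes of -0.01 and 0.01.

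**Figure D5:**
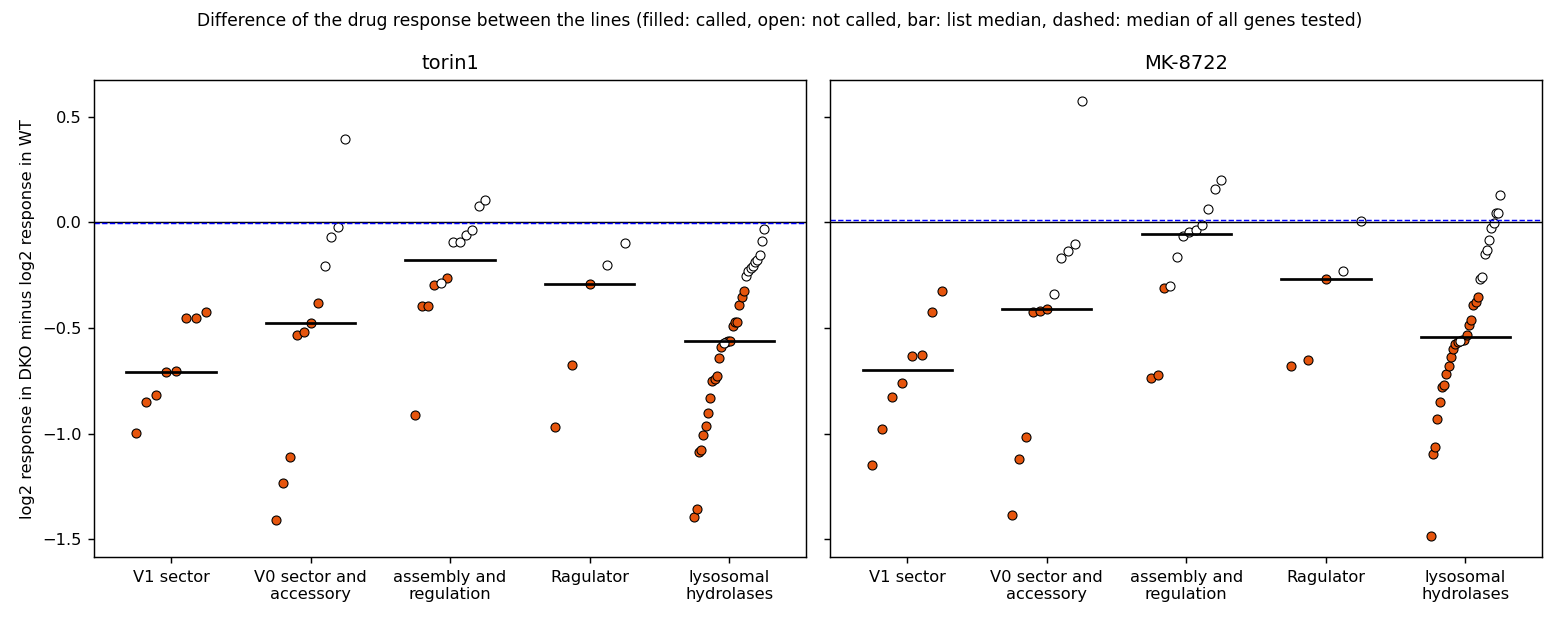
Difference in drug response between the lines (y axis, log2 response in DKO minus that in WT) for the tested genes of 5 lists (x axis), with torin1 (left) and MK-8722 (right). Filled points were called, open points were not, bars are list medians and the dashed line is the median of all genes. All 8 V1 points are filled in both panels, from -0.42 to -0.996 with torin1 and from -0.33 to -1.15 with MK-8722.

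Genes of like pattern were sought by the root mean square difference of the 6 centred group means of log2 CPM from the mean profile of the 8 V1 genes, among 10658 genes. The nearest were Dip2c (0.06), Tmem150a (0.07), Scpep1 (0.08), Ctsb (0.09) and Rmc1 (0.10), of which Scpep1 and Ctsb are on the hydrolase list. Among the 8 genes themselves, Atp6v1e1 was nearest to their mean profile (0.11) and Atp6v1h farthest (0.35).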

How the data were processed

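RNA was isolated from the 24 cultures and libraries were made with a strand-specific mRNA kit and sequenced as paired ends by the authors. The reads were aligned to GRCm38 with STAR and quantified with Salmon by the authors through nf-core/rnaseq, with unique molecular identifiers and each replicate apart. The deposited gene table holds the estimated counts by Salmon per gene, and the deposited files of each library hold TPM, estimated counts and effective lengths per transcript. The paper states that its authors removed a batch effect with limma, while the labels put all libraries in 1 batch. The deposited counts were used with no batch term.

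The estimated counts were rounded and filtered with edgeR 4.0.16 (filterByExpr, minimum count of 10), scaled by TMM and fitted with 1 mean for each of the 6 groups (18 residual degrees of freedom, quasi-likelihood in its edgeR 3 form, R 4.3.3). Calls required both a Benjamini-Hochberg adjusted p below 0.05 and a 1.2-fold change or more. Alternatives included DESeq2 1.42.0, other scalings, filters and left-out libraries. The scripts were tested on simulated data with 100 genes changed at each of 2 sizes. For torin1 in WT, 71 of 100 changes of log2 0.5 and 80 of 100 of log2 1 were called. For the torin1 interaction these were 32 and 75 of 100, so changes of this size were often missed. False calls numbered 6 and 10 among 15026 genes. Depth ranged from 24668870 to 33332507 counts per library, with members between 695 and 5303 counts. Passage numbers repeat within a line: over 24 pairs of same-passage libraries the correlation of deviations from group means ran from 0.02 to 0.66 and was over 0.1 in 17. The 36 replicate pairs differed beyond sampling noise (chi-square over its degrees of freedom between 3.97 and 40.5). Effective lengths were used for an offset alternative, and the map of transcripts to genes for sums.

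The genes and lists were chosen with earlier results of these data known. All 8 members were named, and from each other list the up to 4 genes with the largest called difference in response between the lines. Coordinates came from GENCODE M21 and promoter windows from RefSeq.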

Additional observations from a re-analysis of the deposited data

Results flagged for a closer look

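All 16 differences in drug response between the lines (DKO minus WT, log2) passed the interaction test across all genes. With torin1 they were -0.71 for Atp6v1a, -0.85 for Atp6v1b2, -0.70 for Atp6v1c1, -0.996 for Atp6v1d, -0.45 for Atp6v1e1, -0.42 for Atp6v1f, -0.45 for Atp6v1g1 and -0.82 for Atp6v1h. With MK-8722 they were -0.63 for Atp6v1a, -0.83 for Atp6v1b2, -0.98 for Atp6v1c1, -1.15 for Atp6v1d, -0.42 for Atp6v1e1, -0.33 for Atp6v1f, -0.63 for Atp6v1g1 and -0.76 for Atp6v1h.

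In 3 of the 48 sets of 4 libraries (8 genes by 6 groups), the end library stood apart from the others by Dixon's criterion, which chance meets in about 1 of 20 such sets. Atp6v1d in WT with torin1 was lowest in replicate 1, at 48.5 CPM against 52.6 CPM for the next. Atp6v1h in WT with torin1 was highest in replicate 4, at 45.1 CPM against 40.1 CPM. Atp6v1h in DKO with torin1 was lowest in replicate 2, at 40.2 CPM against 43.6 CPM.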

How the results depend on the processing

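The 16 differences in response between the lines kept their sign under every alternative run, and 14 of them stayed called with a test against the fold change of 1.2, the exceptions being Atp6v1g1 with torin1 (-0.45) and Atp6v1f with MK-8722 (-0.33). The 8 genes called with MK-8722 in WT stayed at 8 in all alternatives and with each library left out. The 5 genes called higher with torin1 in WT became 3 with no filter and 3 with the test against a fold change of 1.2, and ranged from 3 to 5 with each library left out, 3 being reached without WT DMSO replicate 1 and without WT torin1 replicate 3. With the adjusted p alone as criterion, 8 genes were lower with torin1 in DKO, against 28.1% of all genes. With MK-8722 in DKO 1 was higher, against 10.5% of all genes. Under DMSO 4 were higher and 1 lower in DKO, beside 4809 higher and 4918 lower among all 15401 genes tested. Under MK-8722 1 was higher in DKO, beside 4707 of all genes. In DKO 8 were lower with torin1 than with MK-8722, beside 4284 of all genes. The sign turned for Atp6v1h between the lines under torin1 (-0.070 with library totals alone) and for Atp6v1a under DMSO (0.011 with a length offset), neither of them called. Per base of the longest transcript, the shares of the summed level in WT with DMSO were 8.46% for Atp6v1a, 10.0% for Atp6v1b2, 6.49% for Atp6v1c1, 3.10% for Atp6v1d, 7.02% for Atp6v1e1, 32.1% for Atp6v1f, 30.0% for Atp6v1g1 and 2.85% for Atp6v1h. With the motif GTCACGTG in place of CACGTG, 0 windows matched. With library totals alone, torin1 in WT gave 7 genes. The 4 genes lower with torin1 in DKO became 3, without Atp6v1c1, with library totals alone (log2 -0.24), at least 10 counts in every library (-0.26), the length offset (-0.21) and the test against a fold change of 1.2. By the per-base shares the order of the levels changes, with Atp6v1b2 at rank 3, Atp6v1c1 at rank 6 and Atp6v1h lowest. The cause of these changes was not tested.

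The replicate numbers did not pair the libraries (correlation over 0.1 in 13 of 60 pairs), and the fit with the replicate block changed 0 calls, leaving 5 genes higher with torin1 and 8 with MK-8722 in WT. The passage block, and leaving out the passage 11 libraries of WT or the passage 8 libraries of DKO, also left all 88 calls as they were. Over all genes, scaling by library totals shifted the median of the torin1 comparison between the lines by -0.13 (log2), and moved the share of calls that were higher with torin1 in WT from 56.5% to 68.2%, between the lines under torin1 from 46.3% to 31.9%, for the torin1 interaction from 42.5% to 26.5%, and for torin1 against MK-8722 in WT from 55.4% to 66.3%. With the test against a fold change of 1.2, the genes called over the whole table went from 1696 to 454 (torin1) and from 846 to 273 (MK-8722) for the interactions, and with MK-8722 from 2487 to 956 in WT and from 1338 to 174 in DKO. With the adjusted p alone the last pair became 4775 and 3198. The passage block gave 1392 genes for the MK-8722 interaction, and without the passage 11 libraries of WT 58.4% of the torin1 interaction calls were higher.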
